A study of Rattus norvegicus with 9 samples.

Results

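Untreated rat skin was described from the 5 control arrays of a series of 9, each from a separate Sprague Dawley rat that received no carrageenan (CGN). CGN is a sugar polymer from seaweed that is injected to set off swelling and pain. The other arrays of the series, from CGN-treated skin, were not used here. Sprague Dawley is an outbred albino strain. The labels give neither age, sex nor the part of the skin, and for the controls no hour of harvest. RNA was labelled with biotin and read on 1-colour arrays, and the arrays were taken by their labels and not by any measured value.

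The deposited intensities ran from 4.07 to 27404.4, with array medians between 16.7 and 17.81. Each of 19091 gene symbols was represented by its probe set with the highest mean log2 intensity over the 5 arrays. The arrays resembled each other closely, with Pearson correlations over these genes between 0.986 and 0.994, a description in which genes are not independent replicates. Values for single arrays follow the order of control replicates 1 to 5, and every SD is over those 5 arrays. The number of arrays limits the precision. Brightness also depends on how well a probe binds, so an order of genes by brightness is not an order by number of transcripts.

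Skin is built of an epidermis, whose basal keratinocytes divide and move outward while they exchange their keratins and lay down the cornified barrier, and of a dermis, in which fibroblasts secrete collagen. Hair follicles, sebaceous and sweat glands, vessels, nerves, fat and resident immune cells lie within or below it. In rodents a thin sheet of striated muscle, the panniculus carnosus, lies beneath the dermis over much of the body, and the hairless sole carries a thicker epidermis with keratins of its own. In a bulk sample, fewer cells of a type and less RNA per cell cannot be told apart.

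Keratins, collagens and ribosomal proteins led the brightest genes. Krt10, the type I keratin of the suprabasal epidermis, was the brightest of the 19091 genes, with log2 intensities of 14.68, 14.74, 14.56, 14.74 and 14.74 (mean 14.69, SD 0.08). All 5 arrays lay close together, replicate 3 being the lowest. Krt14, the type I keratin of basal keratinocytes, averaged 14.32 (SD 0.05). Krt2, a keratin that in mouse marks ear, tail and sole epidermis, averaged 14.23 (SD 0.15). Sbsn, a secreted protein of the suprabasal layers, averaged 14.12 (SD 0.10). Col3a1, Col1a2 and Col1a1, the fibrillar collagens of the dermis, averaged 14.25, 13.99 and 13.92. Epidermis and dermis were thus both represented among the 12 brightest genes.

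**Figure D1:**
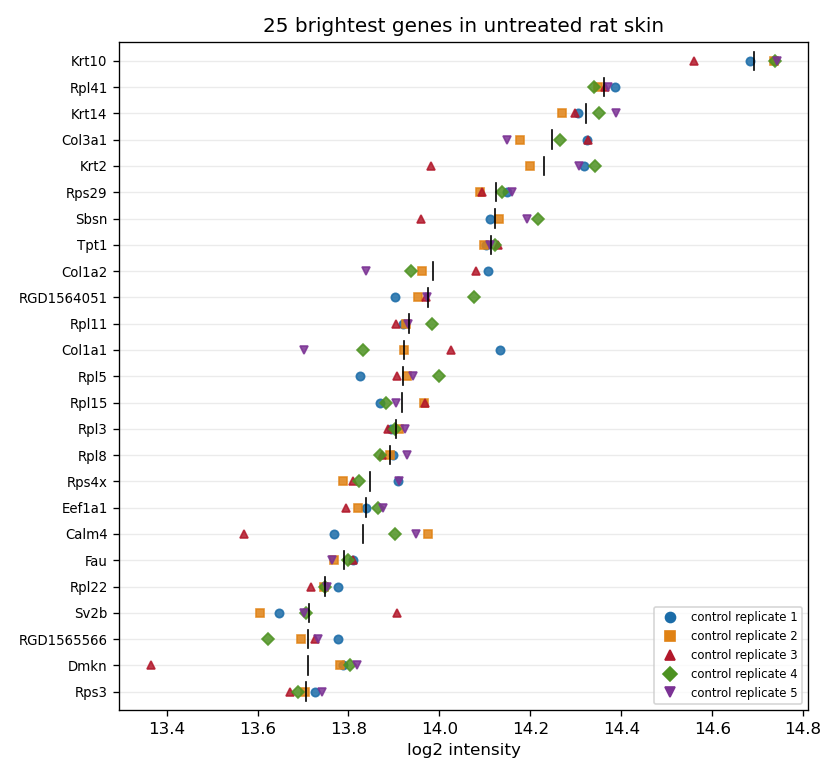
Log2 intensity (horizontal axis) of the 25 genes with the highest mean over the 5 control arrays, 1 symbol per array and a black bar at the mean. Krt10 leads at 14.69, and the arrays nearly coincide for ribosomal proteins such as Rpl41 (SD 0.02), while replicate 3 lies apart to the left for Dmkn.

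The remaining places among the 25 brightest went mostly to the translation machinery. They included Rpl41 at 14.36, Rps29 at 14.13 and Eef1a1, the factor that brings transfer RNA to the ribosome, at 13.84. Tpt1, a growth-related protein abundant in many cells, averaged 14.11 and had the smallest SD of all genes, 0.01. Calm4, a calcium-binding protein of the calmodulin family, averaged 13.83 (SD 0.17), and Dmkn, a secreted epidermal protein, 13.71 (SD 0.19). Sv2b, known as a glycoprotein of synaptic vesicles, stood at 13.71 by its chosen probe set, whereas its other probe set averaged 2.72. The level of Sv2b therefore rests on 1 probe set.

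A mean log2 intensity of at least 12 was reached by 250 of 19091 genes (1.31%). By symbol, 43 of 88 genes named like cytosolic ribosomal proteins were among them, against 6 of 44 keratins and 4 of 38 collagens. Of genes named like elongation and initiation factors, 9 of 63 were. The symbol patterns can also take in related genes such as Rpl3l, and kinases named after these proteins, so the totals are not exact. These symbol families were drawn up after the values were seen. Symbols beginning with LOC or RGD, which carry no descriptive gene name, supplied 21 of the 250.

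The layers of the epidermis were described with lists of known markers. Of 12 measured suprabasal members, 9 had a mean of at least 12, and the list's median level was 13.23, against 5.49 over all genes. Krt1, the partner of Krt10, averaged 13.18 (SD 0.55). The cornified envelope and barrier list had a median level of 11.33 over 17 members, 5 of them at 12 or more. Its brightest members were Lgals7, a lectin of stratified epithelia, at 13.21, Flg, the filaggrin precursor that bundles keratin filaments, at 12.80, and Tgm3, a crosslinking enzyme of the envelope, at 12.70. The basal list had a median of 10.30 over 13 members, led by Krt14, Perp at 13.35 and the hemidesmosome collagen Col17a1 at 12.03. Krt5, the basal partner of Krt14, averaged 11.97 (SD 0.08).

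Keratin genes spanned nearly the whole brightness range of the array. Beside those named, Krt24 averaged 13.70 (SD 0.14) and Krt16, a keratin of sole skin and of wounded or inflamed epidermis, 12.56 (SD 0.38). Krt17, found in the outer root sheath of the hair follicle, averaged 9.65, and Krt34, a hair cortex keratin, 9.02. Krt8 and Krt18, the pair of simple and glandular epithelia, averaged 4.26 and 3.72. The dimmest of the measured keratins in the brightness order was Krt28 of the inner root sheath, at 2.78.

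The promoters of 6 genes are shown because they stand for the brightest gene (Krt10), for inner root sheath keratins that differed most between animals (Krt25 and Krt27), and for the skeletal muscle genes described below (Ckm, Myh4 and Acta1). Each runs from 250 bases before to 50 bases after the RefSeq transcription start on assembly GRCr8, 5′ to 3′ on the gene's strand. Krt10 lies at chr10:84839111-84839410 (minus strand), Krt25 at chr10:84771148-84771447 (minus strand) and Krt27 at chr10:84800082-84800381 (minus strand). Ckm lies at chr1:88189211-88189510 (plus strand), Myh4 at chr10:52421898-52422197 (plus strand) and Acta1 at chr19:68784145-68784444 (minus strand). Capitals mark matches to TATAAA, the core of the TATA box, to an E-box of the form CAGCTG and to the CArG box. Each was searched on both strands, and no marked match overlaps another.
Krt10: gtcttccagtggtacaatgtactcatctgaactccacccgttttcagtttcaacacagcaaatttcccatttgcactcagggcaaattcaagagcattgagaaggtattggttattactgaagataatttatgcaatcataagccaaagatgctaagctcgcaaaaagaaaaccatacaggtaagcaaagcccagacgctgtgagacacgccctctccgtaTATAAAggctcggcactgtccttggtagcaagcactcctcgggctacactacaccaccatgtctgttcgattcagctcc
Krt25: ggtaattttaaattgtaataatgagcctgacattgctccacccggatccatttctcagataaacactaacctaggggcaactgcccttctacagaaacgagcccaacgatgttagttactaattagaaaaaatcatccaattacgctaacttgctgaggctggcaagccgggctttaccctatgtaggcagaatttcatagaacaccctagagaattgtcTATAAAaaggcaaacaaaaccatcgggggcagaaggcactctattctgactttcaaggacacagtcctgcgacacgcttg
Krt27: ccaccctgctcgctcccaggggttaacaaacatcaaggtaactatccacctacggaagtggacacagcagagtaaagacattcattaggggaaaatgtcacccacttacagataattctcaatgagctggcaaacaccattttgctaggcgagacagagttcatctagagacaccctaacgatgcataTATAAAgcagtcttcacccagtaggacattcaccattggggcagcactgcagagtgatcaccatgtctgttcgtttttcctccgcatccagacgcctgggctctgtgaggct
Ckm: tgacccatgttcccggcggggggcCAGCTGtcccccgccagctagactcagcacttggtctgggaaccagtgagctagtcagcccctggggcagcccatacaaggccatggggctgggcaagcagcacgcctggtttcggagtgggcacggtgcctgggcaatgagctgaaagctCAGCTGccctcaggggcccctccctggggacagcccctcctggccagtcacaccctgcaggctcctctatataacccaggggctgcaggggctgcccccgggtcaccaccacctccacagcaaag
Myh4: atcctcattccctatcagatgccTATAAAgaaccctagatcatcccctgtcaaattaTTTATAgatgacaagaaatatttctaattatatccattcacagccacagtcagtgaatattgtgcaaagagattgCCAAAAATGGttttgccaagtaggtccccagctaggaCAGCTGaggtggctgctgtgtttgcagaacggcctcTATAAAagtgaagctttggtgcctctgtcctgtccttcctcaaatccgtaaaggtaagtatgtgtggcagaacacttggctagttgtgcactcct
Acta1: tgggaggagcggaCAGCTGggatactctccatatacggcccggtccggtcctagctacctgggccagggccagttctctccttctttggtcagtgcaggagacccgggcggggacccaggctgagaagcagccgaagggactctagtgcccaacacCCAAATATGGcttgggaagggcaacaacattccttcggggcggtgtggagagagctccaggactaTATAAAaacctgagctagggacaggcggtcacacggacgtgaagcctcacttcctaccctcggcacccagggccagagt
The 3 keratin promoters each held 1 TATAAA match and none of the other motifs. Ckm held 2 E-box matches, and Myh4 and Acta1 each held all 3 motifs. Of 33 promoters matched to the skeletal muscle lists, 14 (42.4%) held CAGCTG, against 15.1% of all 33469 promoters. TATAAA stood in 12 (36.4%), against 14.2% of all promoters, and the CArG box in 3 (9.09%), against 1.64%. The MEF2 site was found in 2 (6.06%), against 0.565% of all promoters, and in none of the 6 shown. The muscle promoters were counted 1 per gene symbol, whereas all promoters were not reduced to 1 per symbol. A match is a description of the letters and not a binding site.

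Dermal matrix genes ranged from 5.83 to 14.25, and 6 of 25 had a mean of at least 12. All 25 members measured stood above 5.52, the mean of the brightest of 21 markers of tissues outside skin, a level passed by 49.6% of all genes. Their median level was 10.80, and 15 of 25 reached 10 or more, against 7.2% of all genes. Dcn, a proteoglycan that binds collagen fibrils, averaged 13.38, and Sparc, a collagen-binding secreted glycoprotein, 13.19. Col1a1 was 14.13, 13.92, 14.03, 13.83 and 13.70 in the 5 arrays, and Fbn1, the microfibril protein fibrillin-1, was 11.20, 10.82, 11.02, 10.22 and 10.13. The other Fbn1 probe set, at a mean of 4.80 (SD 0.16), was highest in replicate 4 and lowest in replicate 1. Every member was highest in replicate 1 (12 of 25; all genes 23.0%) or replicate 3 (13 of 25; all genes 24.8%), and 18 of 25 were lowest in replicate 5 (all genes 16.3%). The differences were modest, the list's mean being 10.89, 10.55, 10.87, 10.39 and 10.20.

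Housekeeping programmes varied least. The 22 cytosolic ribosome genes had a median level of 13.20 and a median SD of 0.05. The 20 genes of the mitochondrial respiratory chain had 11.24 and 0.08, against a median SD of 0.17 over all genes. Among genes of like brightness the median SD was 0.10 at means of at least 12 and 0.16 at means from 10 to 12. Atp5b, the catalytic subunit of ATP synthase, averaged 13.18 (SD 0.06). The heat shock list was also bright, with Hspb1 at 12.41 and Hspa1a at 12.40. Its exception in spread was Cryab, a small heat shock protein abundant in striated muscle, at 10.79, 9.52, 11.50, 9.01 and 8.74.

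Among the lists of immune cell types, macrophage, MHC class II and dendritic, and mast cell members passed 5.52 most often. Of 12 macrophage members, 11 stood above 5.52 (all genes 49.6%). They were led by Lyz2, a lysozyme, at 12.36, the endotoxin co-receptor Cd14 at 9.65 and the complement component C1qb at 8.92. Cd74, the invariant chain of MHC class II, averaged 11.44, and 9 of 13 members of that list passed 5.52. Of 12 mast cell members, 7 passed 5.52, near the 49.6% of all genes. Mast cell genes included Cma1, a chymase, at 9.04, Tpsab1, a tryptase, at 8.85 and Cpa3, a carboxypeptidase of mast cell granules, at 8.85. Cpa3 was 9.57, 9.13, 7.93, 8.50 and 9.11, lowest in replicate 3, as were 7 of 12 mast cell members (all genes 24.9%).

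Lymphocyte and granulocyte genes were dim. In the T and NK cell list, 1 of 14 members passed 5.52, a level passed by 49.6% of all genes. It was Cd2 at 6.26, and Cd3e, a chain of the T cell receptor complex, averaged 5.47. None of 8 B and plasma cell members passed 5.52, the brightest being Igha at 4.62. In the neutrophil list 3 of 12 passed, S100a8 at 10.66, S100a9 at 8.97 and the integrin Itgam at 5.60; keratinocytes can also express S100a8 and S100a9, and Itgam is shared with other myeloid cells. Melanocyte genes were near the level of markers of tissues outside skin, which had a median of 3.88. The pigment enzymes Tyr and Dct averaged 2.83 and 2.86, Mlana 3.62, and Pmel alone of 7 passed 5.52, at 5.64.

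Endothelial, nerve and positional genes had intermediate levels. Lyve1, a hyaluronan receptor of lymphatic vessels, averaged 10.63, Plvap, a protein of endothelial diaphragms, 10.30 and Pecam1, an endothelial adhesion molecule, 9.31. Of 17 endothelial members, 16 were highest in replicate 3 (all genes 24.8%). Among Schwann cell genes the myelin proteins Pmp22 and Mbp averaged 9.98 and 9.51. Hoxd10, Hoxc9, Hoxa10 and Hoxa13, homeobox genes of posterior or distal body position, averaged 7.57, 7.14, 6.94 and 6.92. The other Hoxd10 probe sets averaged 3.72 and 2.82. The hindlimb genes Pitx1 and Tbx4 averaged 4.97 and 3.33 and the forelimb gene Tbx5 4.55, so none of them stood above 5.52, and Hoxd13 was at 3.33. None of 5 genes of the sex-linked list was matched, so sex was not examined.

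Wide variation between control animals was found in few genes. An SD of log2 of at least 1 was found for 118 of 19091 genes (0.618%) and an SD of at least 0.5 for 598 (3.13%). Of the 118, 86 had a mean of at least 6, so most were not dim, and the 118 held 16.9% of the sum of squared deviations over all genes. Replicate 1 was the highest array for 51 of the 118 and replicate 3 for 43, while replicate 4 was the lowest for 51 and replicate 5 for 36. Over all genes each of these arrays was extreme less unevenly: replicates 1 and 3 were highest for 23.0% and 24.8%, and replicates 4 and 5 lowest for 20.6% and 16.3%. The first 2 principal components of all genes held 41.1% and 29.6% of the variance among the 5 arrays.

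**Figure D2:**
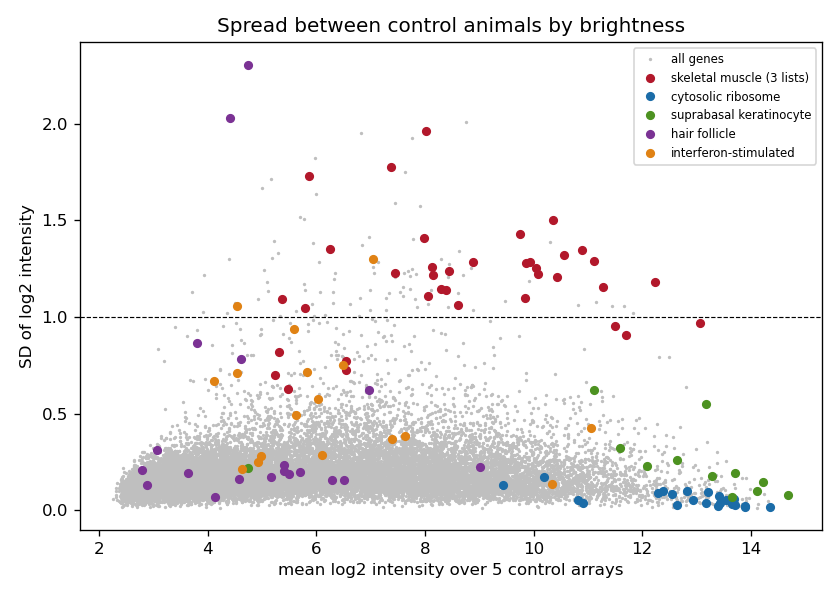
SD of log2 intensity over the 5 control arrays (vertical axis) against the mean log2 intensity (horizontal axis), 1 point per gene, with the members of several lists coloured and a dashed line at an SD of 1. Ribosomal genes lie at the bottom right, with a median SD of 0.05, and skeletal muscle genes stand out with a median SD of 1.22.

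Skeletal muscle genes formed the largest listed group among the variable genes. Of 37 measured members of the fast, slow and shared muscle lists, 29 had an SD of at least 1 (all genes 0.618%) and all 37 an SD of at least 0.5 (all genes 3.13%). Their median SD was 1.22, against 0.17 over all genes. The mean of the 37 was 9.88, 8.94, 9.67, 7.55 and 7.57, a range of 2.33 or 5.03-fold. Replicates 4 and 5 were the 2 lowest, and every member was lowest in one or the other of them, 22 in replicate 4 and 15 in replicate 5. The 37 genes held 4.73% of the same sum of squares.

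The 37 muscle genes ranged in mean from 5.23 to 13.06, with a median of 8.44, and 2 of 37 reached 12 (all genes 1.31%). Acta1, the actin of skeletal muscle filaments, was 13.98, 13.48, 13.82, 12.01 and 12.03 (mean 13.06, SD 0.97). Ckm, the muscle creatine kinase, was 12.36, 11.20, 11.92, 9.34 and 9.65, an 8.14-fold span. Mb, the oxygen store myoglobin, was 12.44, 11.87, 12.70, 10.77 and 10.77. In replicates 4 and 5 these 3 of the brightest members still had log2 levels above 9.

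Fast and slow fibre genes did not peak in the same animal. Of 13 fast members, 12 were highest in replicate 1, where the list mean was 10.90, followed by 9.23, 10.05, 7.68 and 8.19. Of 10 slow members, 9 were highest in replicate 3, the list mean being 9.06, 8.79, 9.73, 7.75 and 7.02. Myh4, the fastest myosin heavy chain, was 12.32, 10.82, 10.91, 8.52 and 9.23. Myh7, the slow myosin heavy chain, was 10.34, 10.25, 11.45, 8.95 and 7.74. Replicate 4 was the lowest for Myh4 and for 11 of 13 fast members, and replicate 5 for Myh7 and for 9 of 10 slow members. The other 2 probe sets of Myh4 were dim, at 3.52 and 2.84, and did not show this span. The exception among the fast genes was Myh2, the myosin of oxidative fast fibres, at 12.38, 11.20, 12.66, 10.66 and 10.64, which peaked in replicate 3.

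Single fast fibre genes spanned wider ranges. Actn3, an actin crosslinker of fast fibres, was 10.69, 7.21, 9.11, 5.52 and 7.60, a 36.0-fold span. Pvalb, a calcium buffer of fast fibres, was 10.02, 6.30, 8.32, 5.65 and 6.62. For both, replicate 1 was highest and replicate 4 lowest, and replicate 2 lay below replicate 3. Among muscle precursor and embryonic genes, Myh3, the embryonic myosin, was 9.22, 8.67, 8.83, 7.46 and 5.34. The myogenic regulators Myf6 and Myod1 were dimmer, Myf6 at 5.99, 6.17, 6.54, 3.52 and 4.23 and Myod1 at 6.25, 5.64, 6.60, 4.77 and 4.32. The perinatal myosin Myh8 averaged 3.20. The other Myh3 probe set was dim, at 3.77 (SD 0.14), and did not show the span of the chosen one.

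**Figure D3:**
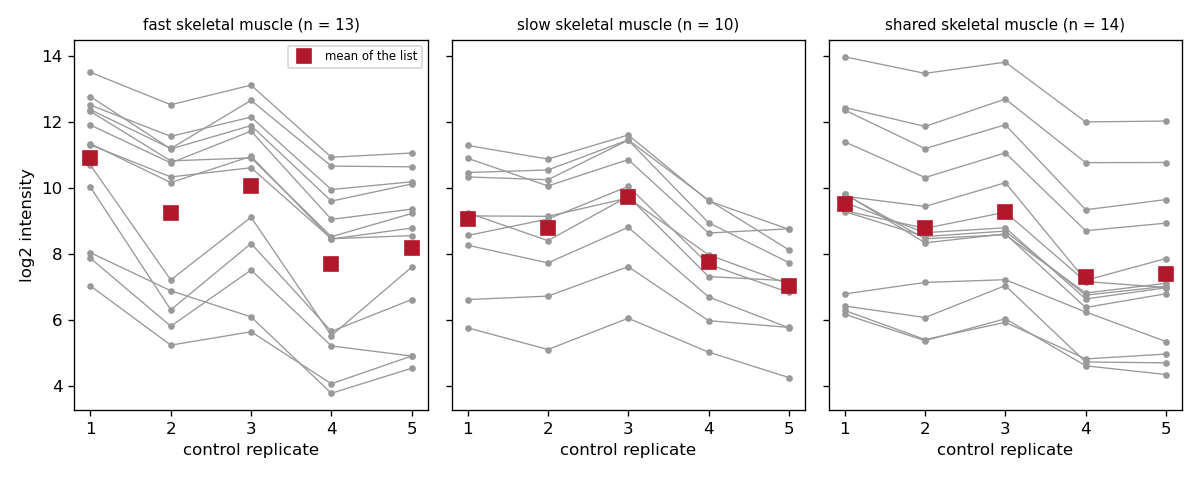
Log2 intensity (vertical axis) in control replicates 1 to 5 (horizontal axis) for the members of the fast, slow and shared skeletal muscle lists, grey lines joining the values of 1 gene and red squares giving the list mean. Fast genes peak mostly in replicate 1 (mean 10.90) and slow genes in replicate 3 (mean 9.73), and both are lowest in replicates 4 and 5.

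Several other groups shared part of this order. All 6 haemoglobin and erythroid members were highest in replicate 3 (all genes 24.8%), with Hbb, a beta globin, at 12.01, 11.05, 12.45, 10.25 and 9.97. Globin probe sets can bind near-identical copies, so single globin genes are uncertain. Smooth muscle genes were lowest in replicate 4 for 8 of 10 members (all genes 20.6%). Tagln, an actin-binding protein of smooth muscle, was 9.90, 10.21, 10.72, 9.29 and 9.79. Whether the spread of these groups and that of skeletal muscle have a shared source was not tested.

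Fat cell genes were higher in replicates 1, 2 and 3 for several members. Adipoq, the adipocyte hormone adiponectin, was 6.35, 7.49, 7.54, 4.04 and 4.53, an 11.3-fold span. Fabp4, a fatty acid carrier, was 6.76, 7.99, 8.10, 6.42 and 5.84, and Cfd, the protease adipsin, 8.27, 8.17, 8.23, 6.73 and 6.62. Car3, a carbonic anhydrase of fat and of slow muscle, was 13.05, 12.84, 13.28, 11.88 and 11.45. Not every member followed. Pnpla2, a triglyceride lipase, had an SD of 0.18, and Lep and Plin1 averaged 3.51 and 3.86, below the brightest marker of tissues outside skin. In all, 8 of 16 adipocyte members had an SD of at least 0.5 (all genes 3.13%), and 10 of 16 a mean above 5.52, near the 49.6% of all genes.

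**Figure D4:**
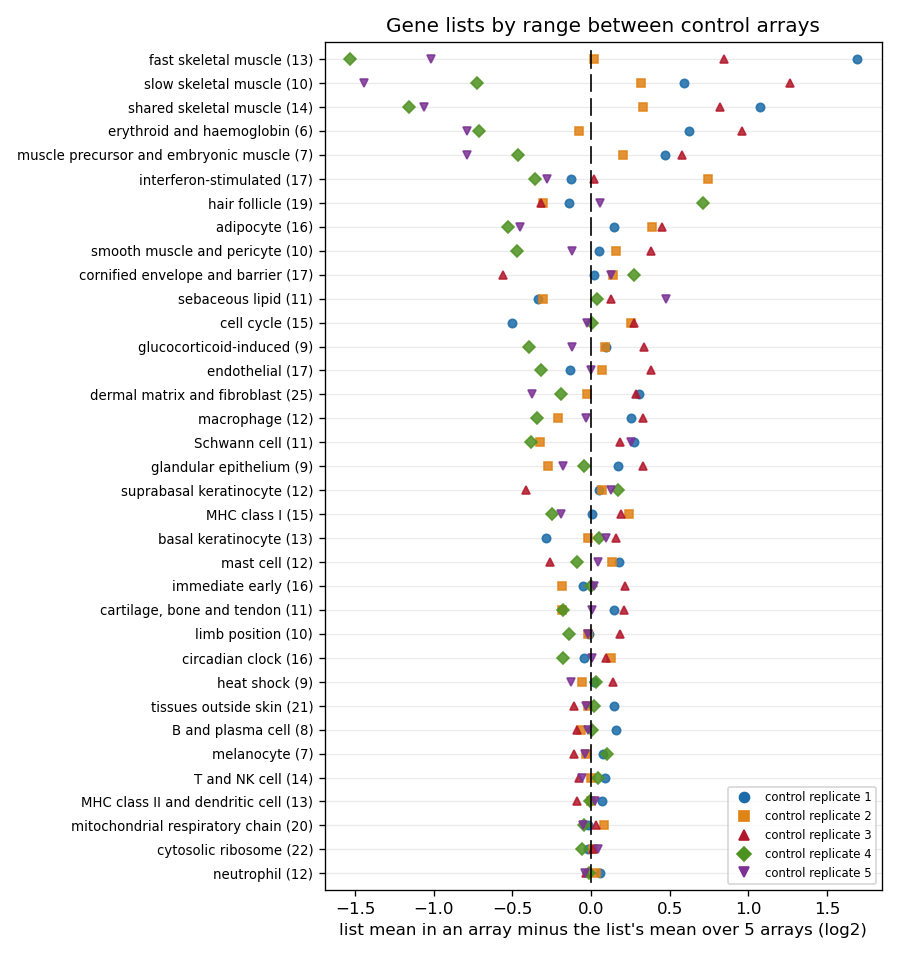
Mean of each gene list in each array minus its mean over the 5 control arrays (horizontal axis, log2), lists ordered by their range, with the number of measured members in brackets. The muscle lists span the widest ranges (3.22 for fast muscle), and neutrophil, ribosomal and mitochondrial lists hardly differ between animals.

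Krt9, the keratin of palm and sole epidermis, had the largest SD among genes with a mean of at least 6. It was 10.88, 8.03, 10.83, 7.70 and 6.37 (SD 2.01), a 22.9-fold span with replicates 1 and 3 high. Krt16, also of sole skin, did not share that order, at 12.65, 12.60, 11.92, 12.88 and 12.77. Among 9 glandular epithelium genes no order was shared, 5 being highest and 3 lowest in replicate 3. Its brightest member Aqp5, a water channel of secretory cells, was 10.11, 9.83, 9.27, 10.08 and 9.85, lowest in replicate 3, as was the calcium channel Trpv6. Scnn1b, a sodium channel subunit, had an SD of 0.10. Krt18 and Krt19, found in sweat gland epithelium, were dim and highest in replicates 3 and 1, Krt18 at 4.12, 2.98, 5.50, 3.31 and 2.68 and Krt19 at 5.72, 4.13, 6.12, 4.57 and 4.24. The labels do not give the part of the skin taken, and whether it differed between animals was not tested.

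Hair follicle genes were highest in replicate 4 for 13 of 19 members (all genes 18.8%). Krt25 was 3.65, 3.08, 2.93, 8.38 and 5.61, a 43.8-fold span and the largest SD of all genes, 2.31. Krt27 was 3.57, 2.99, 3.13, 7.89 and 4.48, and Tchh, the trichohyalin of the inner root sheath, 3.21, 3.40, 3.29, 5.29 and 3.80. For these inner root sheath genes replicate 5 came next, and replicates 1 to 3 lay within the range of markers of tissues outside skin. Krt73, another inner root sheath keratin, was 6.82, 6.61, 6.43, 8.02 and 6.94. The hair keratin Krt35 was also highest in replicate 4, at 3.98, 4.00, 4.38, 5.87 and 4.83. Krt28 of the inner root sheath had an SD of 0.21, but it was dim, at a mean of 2.78, and also highest in replicate 4. Among cortex and matrix genes, Krt34 (SD 0.23) and the follicle regulator Hoxc13 (SD 0.16) varied little. Only 5 of 19 hair follicle members passed 5.52 (all genes 49.6%).

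Some sebaceous and steroid enzymes were higher in replicates 3, 4 and 5, while others of the sebaceous list were lowest in replicate 3. Elovl3, which elongates fatty acids in sebaceous glands, was 4.04, 4.07, 7.34, 6.54 and 7.90. Awat2, a wax ester synthase of sebaceous glands, was 3.85, 3.48, 4.90, 4.38 and 5.96. Akr1c2, an aldo-keto reductase by its symbol, was 5.68, 5.83, 9.51, 8.14 and 9.65, a 15.7-fold span. Hsd3b6 and Cyp17a1, enzymes of steroid synthesis, were 4.33, 4.31, 7.09, 5.24 and 7.50, and 3.42, 3.31, 6.46, 4.85 and 6.89. In each of these 5, replicates 1 and 2 were the lowest. Of 11 sebaceous list members, 8 were highest in replicate 5 (all genes 16.4%). The lowest array was replicate 3 for 4 members (all genes 24.9%) and replicates 1 and 2 for 3 each. Those lowest in replicate 3 included the 3 brightest. Scd, a fatty acid desaturase, was 12.71, 12.92, 12.65, 12.80 and 12.92. Dgat2, which makes triglycerides, was 11.53, 11.43, 10.79, 11.58 and 11.71. Acsbg1, an acyl-CoA synthetase, was 10.76, 11.25, 10.36, 11.13 and 11.13.

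Krt15, and Krt4 by 1 of its probe sets, had the same pair of low arrays. Krt15, a keratin of basal and hair follicle stem cells, was 9.15, 8.52, 11.76, 10.98 and 11.10, and its SD of 1.39 compared with 0.05 for Krt14 and 0.08 for Krt5. Krt4, known from mucosal epithelia, was 7.03, 6.003, 8.91, 8.01 and 8.70 by its chosen probe set. The other Krt4 probe set was 5.02, 4.87, 4.48, 4.83 and 4.91, lowest in replicate 3, so the order of Krt4 rests on 1 probe set.

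**Figure D5:**
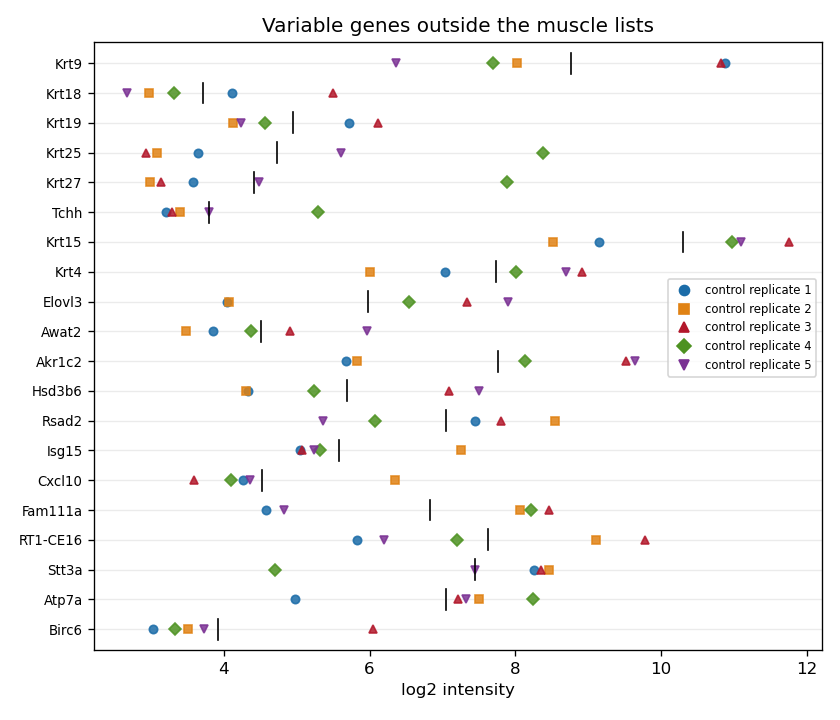
Log2 intensity (horizontal axis) of variable genes outside the muscle lists in the 5 control arrays, 1 symbol per array and a black bar at the mean. Krt25 and Krt27 are highest in replicate 4, Rsad2 and Isg15 in replicate 2, Elovl3 and Akr1c2 are lowest in replicates 1 and 2, and Stt3a is lowest in replicate 4.

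Interferon-stimulated genes were highest in replicate 2 for 13 of 17 members (all genes 16.9%). Rsad2, the antiviral protein viperin, was 7.45, 8.54, 7.80, 6.07 and 5.36. Irf7, a transcription factor of the interferon response, was 6.42, 7.77, 6.31, 5.82 and 6.11. Isg15, a ubiquitin-like modifier, was 5.04, 7.25, 5.07, 5.32 and 5.23, and Usp18, which removes it, 5.65, 7.08, 5.50, 5.69 and 5.25. Cxcl10, an interferon-induced chemokine, was 4.26, 6.34, 3.59, 4.09 and 4.36. Replicate 2 stood alone for Isg15, Usp18 and Cxcl10, while for Rsad2 replicates 1 and 3 lay between. The other Usp18 probe set was dim, at a mean of 3.55 (SD 0.12), and lowest in replicate 2. The brightest member, Ifi27, was not high in replicate 2, at 11.38, 10.73, 11.64, 10.77 and 10.75.

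Replicate 3 was low for the differentiated epidermis. All 12 suprabasal members and 14 of 17 cornified envelope members were lowest in replicate 3, against 24.9% of all genes. Krt1 was 13.42, 13.41, 12.20, 13.53 and 13.34, and Flg 12.82, 13.00, 11.72, 13.37 and 13.10. Klk7, a protease of corneocyte shedding, was 10.74, 10.68, 9.16, 10.91 and 10.44 by its chosen probe set, whereas its other probe set was 7.55, 7.74, 7.61, 7.58 and 7.76, not low in replicate 3. Stfa3, a cysteine protease inhibitor, was 12.02, 12.84, 10.03, 11.29 and 11.02, and Il1rn, the interleukin-1 receptor antagonist, 9.07, 8.22, 6.58, 8.36 and 8.48. Basal genes did not share that pattern, as replicate 3 was the highest for 6 of 13 basal members (all genes 24.8%). It was the lowest for 2, among them Perp at 13.46, 13.36, 13.04, 13.50 and 13.42. Replicate 1 was the lowest for 8 of the 13 (all genes 24.6%). In replicate 3 the mean of the endothelial list was 8.15, against 7.63, 7.83, 7.45 and 7.76 in replicates 1, 2, 4 and 5. The share of epidermis in each sample was not tested.

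Cell cycle genes were lowest in replicate 1 for 13 of 15 members (all genes 24.6%). Mki67, a marker of dividing cells, was 6.22, 7.43, 7.88, 7.02 and 7.25, and Top2a, which untangles replicated DNA, 7.35, 8.24, 8.41, 8.02 and 8.004. Pcna, the replication clamp, was 10.72, 11.06, 11.27, 11.12 and 11.18. Kif20b, a mitotic kinesin in no list, was 6.19, 8.12, 8.29, 7.998 and 7.90.

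Stress and timing genes varied less than muscle. Fos, an immediate early transcription factor, was 6.67, 5.81, 7.64, 6.84 and 6.44, whereas Jun, its partner, had an SD of 0.13 by its chosen probe set. The other Jun probe sets had SDs of 0.28 (mean 8.11, highest in replicate 3 like Fos) and 0.12 (mean 3.42). Of 16 circadian clock members 1 had an SD of at least 0.5, Bhlhe41, at 8.24, 8.29, 8.90, 7.19 and 7.76. Nr1d1, a clock repressor whose level depends on the time of day, was 9.30, 9.60, 9.62, 9.25 and 9.70. Pdk4, which glucocorticoids and fasting raise, was 9.85, 10.17, 10.04, 8.31 and 8.52.

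Some genes split the animals sharply, many of them in no list. A gap of at least 1.5 between neighbouring arrays in the order of levels was found for 63 of 19091 genes (0.33%), of which 24 were list members and 13 muscle genes. Fam111a, a chromatin-associated protease, was 4.58, 8.07, 8.46, 8.22 and 4.83, with a gap of 3.24 between 2 low and 3 high arrays. Another Fam111a probe set gave the same split, at 2.84, 6.94, 7.75, 6.999 and 3.00, and the other, dim probe set ran from 3.99 to 4.92. RT1-CE16, an MHC class I gene, was 5.83, 9.11, 9.78, 7.21 and 6.20, and its other probe set was 7.15, 8.28, 8.20, 6.73 and 6.83. MHC class I genes are near-identical copies that differ between animals of an outbred strain, so this level cannot be assigned to 1 gene.

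Other gaps rested on 1 probe set. Stt3a, a catalytic subunit of the enzyme that adds sugar chains to proteins, was 8.26, 8.47, 8.35, 4.70 and 7.45, but none of its other 3 probe sets was lowest by such a gap in replicate 4, their SD lying between 0.16 and 0.43. Birc6, an inhibitor of apoptosis, was 3.02, 3.50, 6.05, 3.33 and 3.72, whereas its other probe set had an SD of 0.11. Atp7a, a copper transporter, was 4.98, 7.50, 7.21, 8.25 and 7.32. Mrpl43, a mitochondrial ribosomal protein, was 7.73, 8.08, 8.79, 5.81 and 8.79, and Coch, an extracellular protein known from the inner ear, 9.06, 5.68, 8.04, 7.71 and 7.94. Sequence differences between the animals under a probe were not tested.

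Of the 118 variable genes 74 stood in no list, among them the secreted proteins Obp3 and Pip. Obp3, an odorant-binding lipocalin, was 9.58, 6.61, 9.62, 7.99 and 7.67, and Pip, a protein of gland secretions, 6.48, 4.59, 7.97, 5.60 and 4.23. A further probe set with a mean of at least 6 existed for 6 of the variable genes, and its highest array was the same for 4 of them, against 44.6% of 1093 genes in all. Probe sets without a symbol were not described by gene; 14 of 16184 had an SD of at least 1 (0.0865%) and 32 a mean of at least 12.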

How the data were processed

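The authors deposited 1-colour array intensity values on a linear scale, made with RMA per the submitters' processing notes, which give no version. The genome build and detection calls are not given in the sources used here. The 43686 probe sets of the deposited table include 16184 without a symbol. Log2 of the deposited intensity was taken for the 5 control arrays without pseudocount or filter. For each of 19091 deposited symbols the probe set with the highest mean was kept, which was a choice for the 5871 symbols with more than 1. For 1170 it was a probe set ending in _x_at or _s_at, which can bind related transcripts. The series matrix held the same values for all 43685 shared probe sets.

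The genes were summarised by mean, SD and range with Python 3.11.15, pandas 2.3.3 and numpy 2.4.6, and the summary was tested on simulated data. There was 1 group, so no test was run and no p-value is given. Of 499 different genes in 37 lists, 471 were measured, 450 by symbol, 12 by accession and 9 by an older symbol. The members and lists were chosen with earlier results of these data known. Named genes are the 25 brightest, the 25 with the largest SD among means of at least 6, and per list the 3 brightest and the most variable. Krt1, Krt4, Krt5, Krt8, Krt17, Krt18, Krt19, Krt24, Krt25, Krt27, Krt28, Krt35, Tchh, Dcn, Sparc, Fbn1, Pitx1, Tbx4, Tbx5, Hoxd13, Lep, Plin1, Adipoq, Cfd, Myf6, Myod1, Myh8, Elovl3, Awat2, Hsd3b6, Cyp17a1, Irf7, Isg15, Usp18, Cxcl10, Mx1, Top2a, Kif20b, Stfa3, Il1rn, Gsdmc, Birc6, Atp7a, Mrpl43, Coch, Pip, Tyr, Dct and Mlana were named outside that rule, after their values were seen. Promoters are from RefSeq (GRCr8). Alternatives were quantile normalization, median centring, the series matrix, averaging all probe sets of a symbol, no _x_at or _s_at probe sets, other thresholds and leaving out each array.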

Additional observations from a re-analysis of the deposited data

Results flagged for a closer look

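Of 253 named genes and list means, 19 had 1 array apart from the other 4, with a gap to its nearest neighbour of more than 0.71 of the whole range. Chance flags about 1 in 20 groups of normally distributed values, and genes of a list are not independent. That chance rate cannot be set against these 19, since many genes were named for a large SD or after their values were seen. Replicate 3 stood apart for Dmkn (0.917), Krt1 (0.855), Tgm3 (0.755), Klk7 (0.732), Gsdmc (0.754), the mean of the suprabasal keratinocyte list (0.795), Btg2 (0.813) and Tyr (0.822), all low, and for Lpl (0.845) and Birc6 (0.768), both high. Replicate 2 stood apart for the interferon-stimulated genes Isg15 (0.874), Mx1 (0.792), Usp18 (0.761) and Cxcl10 (0.718), all high, and for Lyz2 (0.722), low. Replicate 4 stood apart for Stt3a (0.731), low, and for Tchh (0.714) and Krt28 (0.718), both high. Replicate 1 stood apart for Kif20b (0.818), low. Tyr was dim throughout, between 2.60 and 2.91. The other probe set of Klk7 was not low in replicate 3, and that of Usp18 was not high in replicate 2.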

How the results depend on the processing

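No paired analysis was possible because there was 1 group and no test. The 118 genes with an SD of at least 1 became 115 under quantile normalization, 119 under median centring, 87 with the mean of probe sets, 111 without _x_at and _s_at probe sets, 86 among genes with a mean of at least 6, and 108 to 136 when 1 array was left out. At an SD of at least 0.5 there were 598. The 250 bright genes became 180 with the mean of probe sets, 187 without _x_at and _s_at probe sets and 248 to 257 with 1 array left out. The mean of probe sets lowered the median gene by a log2 shift of -0.51. The muscle range of 2.33 ran from 2.04 with the mean of probe sets to 2.65 with the median over members, and from 2.12 to 2.33 with 1 array left out, while its lowest array was replicate 4 or 5 depending on the setting. Without replicate 3 the range of the suprabasal list was 0.12 in place of 0.59, and that of the cornified envelope list 0.25 in place of 0.83. Without replicate 4 the hair follicle list's range was 0.38 in place of 1.03. With the mean of probe sets, Stt3a had an SD of 0.51, Myh4 of 0.52 and Myh7 of 0.78, and Sv2b a level of 8.22, since dim probe sets entered the mean. The files used here gave no background signal, so dim levels have no detection limit.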
